A study of Mus musculus with 6 samples.

Results

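Olfactory receptor pseudogenes are copies of odorant receptor genes that carry, in most cases, a stop codon, a frameshift or a deletion. They were taken as all rows of the deposited tables whose symbol is Olfr, a number and the suffix -ps, with or without a further number. This gave 293 genes of 55421, among them 2 rows that share the symbol Olfr1073-ps1. They were set beside the 1119 intact olfactory receptor genes, those with the symbol Olfr and a number alone. The expression data are from the cerebral cortex of wild-type male C57BL/6J mice under isoflurane anesthesia, with mice 10, 11 and 17 as the 3 young adults of 6 months and mice 2, 4 and 5 as the 3 old adults of 24 months. All 6 mice shared strain, sex, genotype and anesthetic, so age was the only labelled difference. Each library was made from 10 ng of total RNA and comes from 1 mouse. P-values therefore measure the spread between individual mice.

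Intact olfactory receptors are G protein-coupled receptors that detect odorants in the olfactory epithelium of the nose, where each sensory neuron expresses a single receptor allele. Their genes lie in clusters on many chromosomes and have one coding exon. The pseudogenes lie within the same clusters, and without an open frame they can make no receptor. A pseudogene therefore shares the genomic neighbourhood of the receptors but not their product, and the comparison asks whether the transcript level of such genes differed between the ages as it did for intact receptors.

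The name pseudogene was checked against the annotation (GENCODE vM21, GRCm38) and against the transcript sequences. The annotation lists 201 of the 293 genes as unprocessed pseudogenes, 14 as transcribed unprocessed pseudogenes and 45 as polymorphic pseudogenes, whose frame is open in some strains. The remaining 33 are listed as protein coding in spite of their symbol. The longest open frame, from ATG to a stop, was measured in the longest transcript of each gene alone. It reached at least 300 codons, about the length of a receptor, in 34 genes, of which 31 are listed as protein coding. In the other 259 genes it stayed under 300 codons. Among these, Olfr573-ps1 (297 codons) and Olfr104-ps (277), both listed as protein coding, came close to the limit. The median longest frame was 110 codons in the pseudogenes and 314 codons in the intact receptors. Where the annotation and the symbol disagree, the 34 genes with a long frame are described apart from the rest below.

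The longest open frame differs in length between the genes. For 3 of the genes described later, the 30 bases that close it are shown to mark where a frame of receptor length and 2 shorter frames end, with the stop codon in capitals. The sequences are from the GENCODE transcripts, written 5′ to 3′ on the strand of the gene.
Olfr839-ps1: cttgttggtagactcatttatcttataTGA
Olfr188-ps1: ttccaatatagtacatcaatttttctgTGA
Olfr990-ps1: tattcccatgttaaacctcctcgtgtgTAG

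In Olfr839-ps1 (GRCm38 chr9:19174736-19174765, minus strand) this stop closed a frame of 312 codons, close to the median of the intact receptors. In Olfr188-ps1 (chr16:59050777-59050806, minus strand) the longest frame ended after 170 codons. In Olfr990-ps1 (chr2:85388190-85388219, minus strand) it ended after 118 codons, so neither of these transcripts holds a frame of receptor length. The position of the changes that shortened these frames was not mapped.

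The pseudogenes were short and sat among intact receptors. Their exonic length had a median of 914 bases (85 to 9812), against 2936 bases for the intact receptors, and 186 of them had a single exon block. They lay mostly on chromosomes 2 (85 genes), 7 (52), 9 (40), 19 (28), 11 (21) and 17 (13). Within 50 kb of an intact receptor lay 272 of the 293, at a median distance of 7448 bases. Another annotated gene overlapped 25 of them, 12 on the opposite strand and 13 on the same strand, with shared exons in 10 cases. Of the 50-base windows of their transcripts, 131 pseudogenes shared none with the transcripts of another gene, 88 shared over 10% and 6 shared all.

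The libraries held 29495379 to 36494240 counts, and 61.3% to 64.3% of all annotated genes had at least 1 count at 6 months, against 72.6% to 78.6% at 24 months. The TMM scaling factors, which correct for differences in composition, were 0.921 to 0.946 at 6 months and 1.04 to 1.10 at 24 months. Both measures separated the ages for the whole transcriptome, and their part in the results below was not tested. The summed level of 8 markers of cortical excitatory neurons was also read. It was 3280 to 3580 CPM (counts per 1000000 TMM-scaled counts of the library) at 6 months and 2690 to 3120 at 24 months, without overlap. Camk2a made up most of it, with means of 2310 and 1910 CPM. No other tissue was set beside these libraries, so the sum does not test cortical identity.

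Counts of the pseudogene family were higher in all 3 of the 24-month-old cortices than in any 6-month-old cortex. The 293 genes together had 170, 263 and 209 counts in the 6-month-old mice 10, 11 and 17 (exact 95% counting intervals 145 to 198, 232 to 297 and 182 to 239). They had 887, 868 and 587 counts in the 24-month-old mice 2, 4 and 5 (830 to 947, 811 to 928 and 540 to 636). The ages did not overlap, although the 24-month-old libraries were the less deeply sequenced. The difference was spread over many genes and was not carried by a few, since the 10 genes with the most counts held 19.3% of all counts of the family. In bulk tissue, more cells with a transcript and more transcript per cell cannot be told apart. No level outside annotated exons was read, so the part of a general background of reads in these counts was not tested. The intervals cover counting error only.

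**Figure D1:**
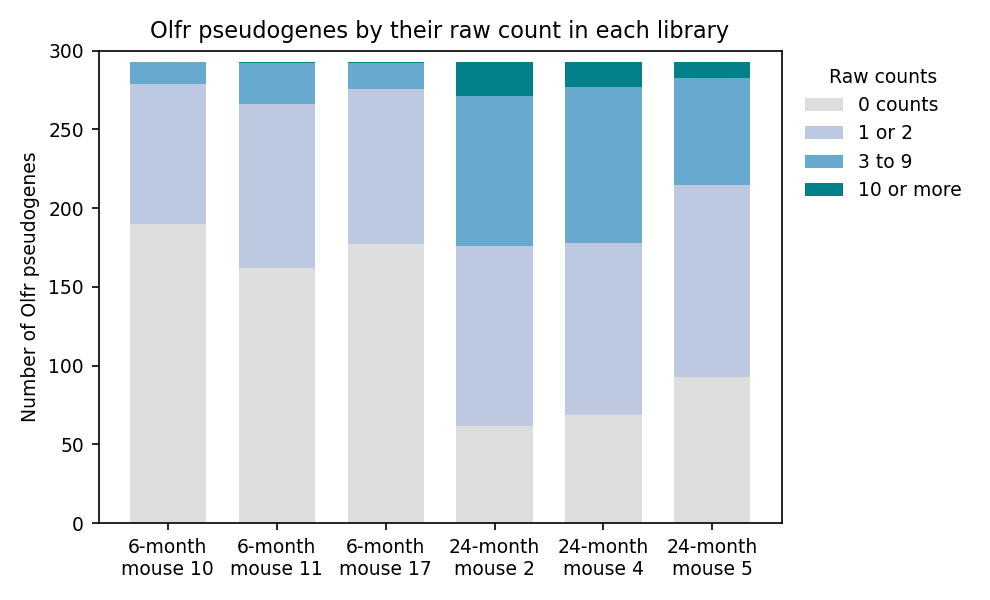
Number of olfactory receptor pseudogenes (vertical axis, 293 in all) with 0, 1 or 2, 3 to 9, and 10 or more raw counts in each of the 6 libraries. Genes without a count numbered 162 to 190 per library at 6 months and 62 to 93 at 24 months, and genes with 10 or more counts numbered 0 to 1 at 6 months and 10 to 22 at 24 months.

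The level of each gene was nevertheless very low at both ages. At least 1 count was found for 103, 131 and 116 pseudogenes in the 6-month-old mice and for 231, 224 and 200 in the 24-month-old mice. The median pseudogene had 0 counts in each 6-month-old library and 2, 2 and 1 counts in the 24-month-old libraries. No pseudogene exceeded 14 counts in a library at 6 months or 25 counts at 24 months. In the TPM values of the authors the mean over the pseudogenes was 0.0646, 0.0732 and 0.0716 at 6 months and 0.307, 0.271 and 0.200 at 24 months. The plot of genes by raw count shows the same shift over the classes.

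Of all 293 genes, 255 had a higher mean CPM at 24 months, 20 had a lower mean and 18 had no count in any library. At 6 months 92 had no count in the 3 libraries, and at 24 months 21. Counts at 24 months alone were found for 74 genes, whereas 3 had counts at 6 months alone. These 3, named after their values were seen, were Olfr719-ps, Olfr1139-ps1 and Olfr379-ps1. The 18 silent genes were short, with a median exonic length of 292.5 bases and at most 936. At this depth a count of 0 in 1 library allows up to 0.0867 to 0.0973 CPM (3 counts), so these genes were not detected rather than shown to be absent.

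To compare families of different length, the counts of each family were summed in each library, scaled by TMM and divided by the summed exonic length. This density was 0.0158, 0.0218 and 0.0182 CPM per exonic kb for the pseudogenes at 6 months and 0.0781, 0.0717 and 0.0493 at 24 months. The means were 0.0186 ± 0.00302 and 0.0664 ± 0.0151 (SD, n = 3 per age), a 3.57-fold difference. The lowest 24-month-old mouse stood 2.26-fold above the highest 6-month-old mouse. All 293 genes entered, so no filter on counts selected them. The ratio of summed counts was 3.54 (exact 95% counting interval 3.24 to 3.87).

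Intact olfactory receptors were also higher at 24 months, by a similar factor. Their density was 0.0243, 0.0255 and 0.0264 CPM per exonic kb at 6 months and 0.0916, 0.0759 and 0.0566 at 24 months, which gave means of 0.0254 ± 0.00101 and 0.0747 ± 0.0175 (SD, n = 3 per age) and a 2.94-fold difference. In both families mouse 2 was the highest and mouse 5 the lowest of the 24-month-old mice. The 229 intact receptors that are the nearest neighbour of a pseudogene had densities of 0.0223 ± 0.00292 and 0.0708 ± 0.0164 and a 3.17-fold difference. The fold of the pseudogenes was the highest of the 3, and the differences in fold were not tested.

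The density of pseudogenes relative to intact receptors, a ratio within each library that does not depend on its scaling, was 0.647, 0.855 and 0.692 at 6 months and 0.853, 0.945 and 0.871 at 24 months. Its means were 0.731 ± 0.109 and 0.89 ± 0.0489 (SD, n = 3 per age). Mouse 11 at 6 months and mouse 2 at 24 months had almost the same ratio, so the ages overlapped by a small margin. The pseudogenes lay below the intact receptors in all 6 libraries.

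**Figure D2:**
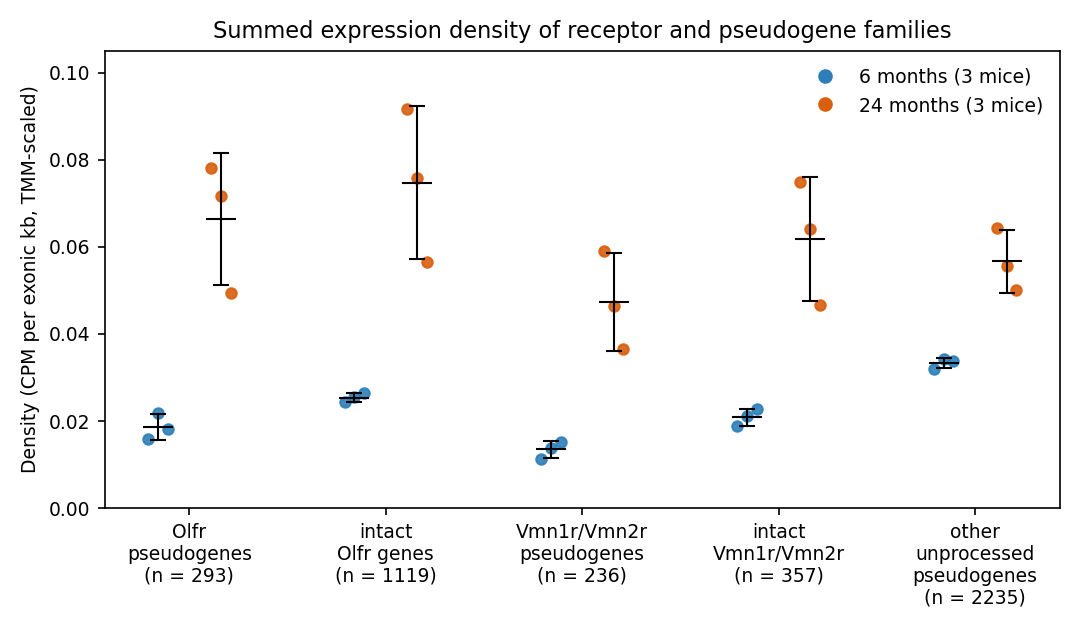
Summed density (CPM per exonic kb, linear axis from 0) of olfactory receptor pseudogenes, intact olfactory receptors, vomeronasal receptor pseudogenes, intact vomeronasal receptors and other unprocessed pseudogenes. Points are single mice and black bars are the mean ± SD of 3 mice, and in each family the 24-month-old mice lay above the 6-month-old mice.

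Other gene families without a known product in cortex were measured in the same way. Vomeronasal receptors detect pheromones in the vomeronasal organ, and their 236 pseudogenes had densities of 0.0135 ± 0.00196 and 0.0474 ± 0.0112 CPM per exonic kb, a 3.51-fold difference. Their 357 intact relatives differed by 2.96-fold. The 2235 unprocessed pseudogenes of other families had a higher density at 6 months, 0.0333 ± 0.00122, and 0.0567 ± 0.00726 at 24 months, a 1.70-fold difference. All of these families were higher in each 24-month-old mouse than in any 6-month-old mouse, and the differences between families in fold were not tested.

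A further comparison used protein-coding genes of other families with hardly any transcript at 6 months. They had to exceed 500 exonic bases and to have no more than 2 counts in either library of a pair of young mice. The young mouse outside the pair then gave their level, and all 3 pairs were used. The 3074 to 3224 genes of each choice had densities of 0.0123 to 0.0144 CPM per exonic kb in that remaining mouse. In the 24-month-old mice 2, 4 and 5 the same genes had 0.0588 to 0.0601, 0.0447 to 0.0471 and 0.0282 to 0.0296. These coding genes, with all receptor genes of the nose left out, were also higher at 24 months, and mice 2, 4 and 5 had the same order as for the pseudogenes. They were chosen for low counts in young mice, which left little room for a lower level at 24 months. Their direction was therefore in part set by the choice.

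Pseudogenes with and without an open frame of at least 300 codons had similar densities at both ages. The frame was measured by its length alone, and the longest, 578 codons in Olfr1372-ps1, exceeds that of a receptor. The 259 pseudogenes without such a frame had densities of 0.0183 ± 0.00272 at 6 months and 0.0673 ± 0.0156 at 24 months, a 3.68-fold difference. The 34 with such a frame had 0.0191 ± 0.00357 and 0.0649 ± 0.0144 CPM per exonic kb, a 3.39-fold difference. The ratio of the first density to the second within a library was 0.98, 0.917 and 0.985 at 6 months and 1.05, 1.03 and 1.03 at 24 months. The annotation classes gave folds of 3.69 for unprocessed pseudogenes, 3.75 for polymorphic pseudogenes, 3.56 for those listed as protein coding and 2.92 for transcribed unprocessed pseudogenes. In each class the ages did not overlap.

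The position of the genes was examined next. The 268 pseudogenes that overlap no other gene had a 3.76-fold difference, with densities of 0.0177 ± 0.00327 and 0.0666 ± 0.0163 CPM per exonic kb. The 12 that overlap a gene on the opposite strand had a higher density at 6 months, 0.0362 ± 0.0104, and 0.0608 ± 0.0118 at 24 months, a 1.68-fold difference. For the 13 that overlap a gene on the same strand the fold was 3.11. The library kit does not mark the strand, so reads of an overlapping gene cannot be told apart from those of the pseudogene.

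By chromosome the fold was 3.99 on chromosome 2, 3.47 on chromosome 7, 3.39 on chromosome 9, 4.44 on chromosome 19, 2.83 on chromosome 11, 3.76 on chromosome 17 and 3.27 on the other chromosomes together. For the intact receptors it was 3.60, 2.45, 3.23, 3.45, 2.28 and 3.17 on the 6 named chromosomes in that order. Chromosome 11 had the lowest fold of the 6 in both families. The ages did not overlap on any of these chromosomes.

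**Figure D3:**
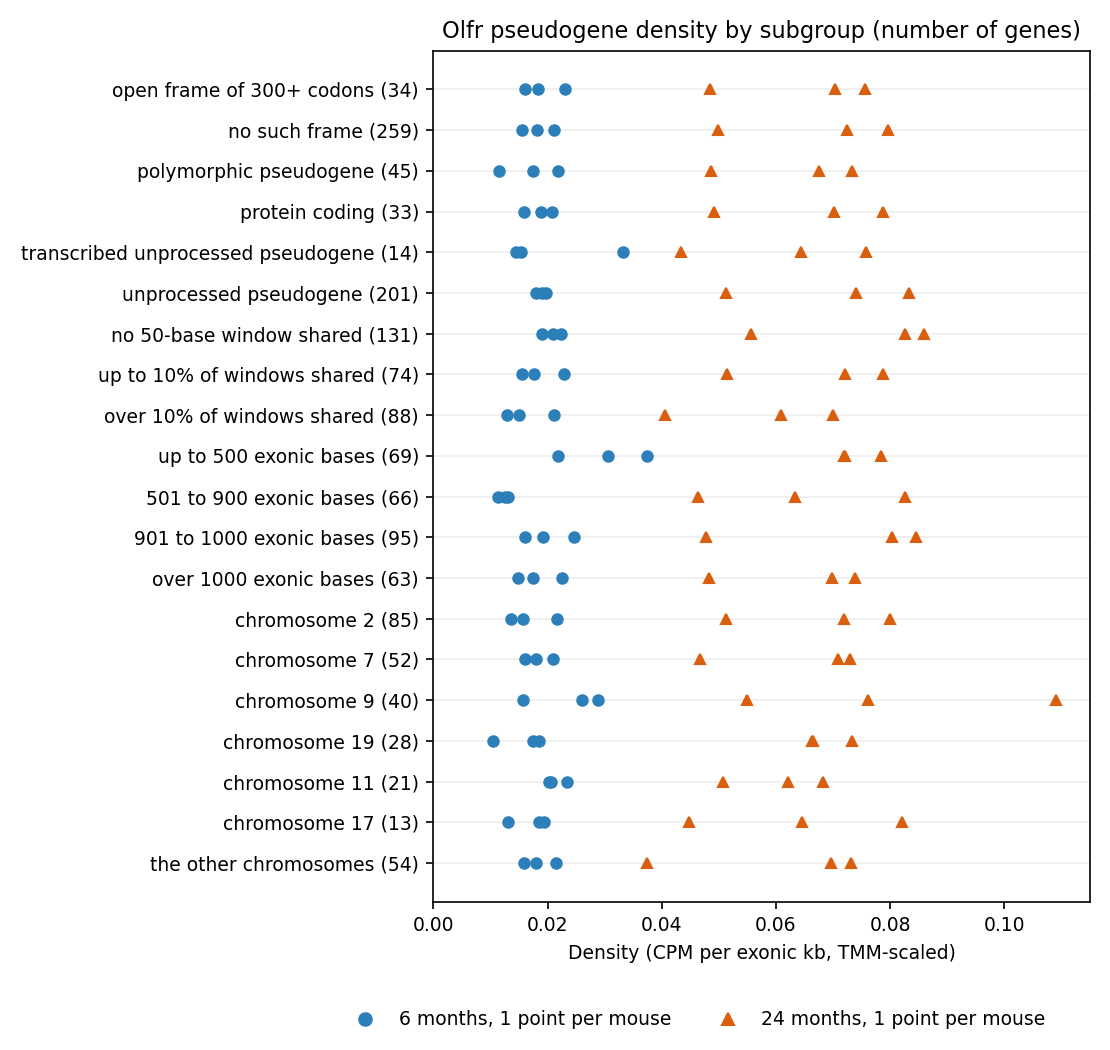
Density of olfactory receptor pseudogenes (CPM per exonic kb, linear axis from 0) by open frame, annotation class, shared sequence, exonic length and chromosome, with the number of genes in parentheses. Each point is 1 mouse, and the 24-month-old mice (triangles) lay above the 6-month-old mice (circles) in every subgroup, most narrowly among the 14 transcribed unprocessed pseudogenes.

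Sequence shared with other genes affects how many reads can be placed. The minimum mapping quality of 15 set by the study removes reads with several positions, so a near-identical copy can lose reads. The part of such losses in the densities was not tested. The density at 24 months was 0.0748 CPM per exonic kb for pseudogenes with no shared 50-base window, 0.0674 for those with up to 10% shared and 0.0572 for those with over 10% shared. The fold between the ages was 3.59, 3.61 and 3.49 in these 3 groups. Genes at or below the median GC content of 40.8% differed by 3.63-fold and those above it by 3.48-fold.

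Longer pseudogenes had more counts, at both ages. Over the 293 genes, which share the same libraries, Spearman's rho between exonic length and summed counts was 0.563 at 6 months and 0.712 at 24 months, and Pearson's r was 0.785 and 0.905. Genes of up to 500 exonic bases differed by 2.48-fold, those above that and up to 900 bases by 5.21-fold, those from there to 1000 bases by 3.56-fold and longer ones by 3.50-fold. The smallest genes stood out by their level at 6 months, 0.0299 ± 0.0078 CPM per exonic kb, against 0.0123 ± 0.000937 for the next class, up to 900 bases. This level rests on 62 counts in 69 genes. Olfr277-ps1 held 10 of them and Olfr1556-ps1 held 7, and both lie within another gene.

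**Figure D4:**
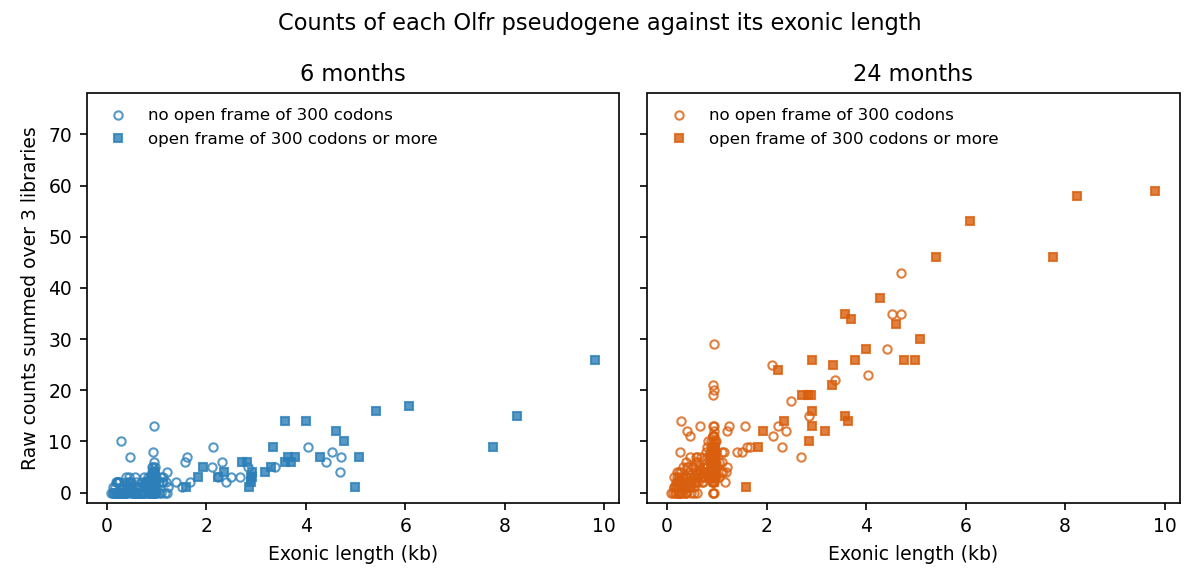
Raw counts of each olfactory receptor pseudogene summed over 3 libraries (vertical axis) against its exonic length in kb (horizontal axis), at 6 months on the left and at 24 months on the right. Filled squares are the 34 genes with an open frame of at least 300 codons and open circles the other 259, and counts followed length in both kinds of gene, with Pearson's r of 0.785 at 6 months and 0.905 at 24 months.

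Long genes allow single levels to be compared with less counting error. The 63 pseudogenes of over 1000 exonic bases had a median of 0.0169 CPM per exonic kb at 6 months (0 to 0.0434) and 0.0588 at 24 months (0.00644 to 0.117). At 24 months their middle 50% lay between 0.0493 and 0.0715. The 1046 intact receptors of that length had a median of 0.0169 at 6 months and 0.0665 at 24 months. The 95th percentile was 0.0383 for the pseudogenes and 0.0457 for the intact receptors at 6 months, and 0.0998 and 0.118 at 24 months. The highest of the 1046 intact receptors, Olfr316, reached 1.75 and 2.7 CPM per exonic kb, and the highest of the 63 pseudogenes 0.0434 and 0.117, a comparison that favours the larger set.

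A gene whose counts in the 6 libraries summed to at least 10 entered the quasi-likelihood test of edgeR, and p-values were adjusted over all 32905 genes tested by the Benjamini-Hochberg method. Of the 293 pseudogenes, 95 had enough counts. With so few counts at 6 months a pseudogene reached 10 counts mainly through the 24-month-old libraries, so the counts of calls that follow describe the tested genes and do not stand for the family. At 1% FDR (false discovery rate) no pseudogene was called, as no gene of the transcriptome was (0.0% of genes tested in either direction), and the smallest adjusted p of a pseudogene was 0.0518. Without adjustment, 50 pseudogenes were higher at 24 months at p under 0.05 and 0 were lower, and the likelihood ratio test of edgeR called 13 higher and 0 lower at 1% FDR (4.41% and 0.766% of genes tested).

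At 10% FDR, 27 of the 95 tested pseudogenes were higher at 24 months and 0 were lower. Of all genes tested, 10.0% were called higher and 8.33% lower. Unadjusted p-values under 0.05 were found for 17.6% of all genes in the higher and 13.1% in the lower direction, against 52.6% and 0 of the tested pseudogenes. In 56 of the 95 pseudogenes all 24-month-old libraries lay above all 6-month-old libraries, and in 0 below. Among all genes tested these shares were 20.0% and 16.2%. The Wald test of DESeq2 called 8 of the 38 pseudogenes to which it gave an adjusted p at 10% FDR, all higher, against 4.93% of genes higher and 6.29% lower. The intact receptors had 459 of 988 tested genes called higher at 10% FDR. With 1 mouse left out, 0 pseudogenes were called without mouse 10, 11, 2 or 4, 9 without mouse 17 and 33 without mouse 5. Calls over all genes tested moved as well. Higher genes at 10% FDR numbered 0 without mouse 10 or mouse 4, 1 without mouse 11 and 72 without mouse 2. They numbered 1224 of 32090 without mouse 17 and 4364 of 31275 without mouse 5. In these 6 fits, with 57 to 90 pseudogenes tested, the median log2 fold change over them was 1.47 to 2.04.

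The median log2 fold change was 1.78 over the 95 pseudogenes, 1.82 over the 988 intact receptors and 0.15 over all genes tested. With the 3 pseudogenes and 30 intact receptors without a count at 6 months set to their lower bound, the medians were 1.78 and 1.81. Of the tested pseudogenes, 94 had a positive log2 fold change and 1 a negative one. Among all 32905 genes tested these numbers were 19232 and 13673. The direction of the 95 was in part set by the count minimum, as 70 of them had at most 3 counts in each 6-month-old library. Scaling by the library totals moved the median of all genes to 0.33 and that of the pseudogenes to 1.96. Relative to all genes the pseudogenes stood at 1.64 with TMM and 1.62 with library totals. The 198 pseudogenes below the count minimum pointed the same way, with 180 counts in the 6-month-old mice and 696 in the 24-month-old mice, of which 160 genes had a higher and 20 a lower mean at 24 months.

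The pseudogenes with the smallest p-values were mostly long ones that keep an open frame. The annotation lists Olfr839-ps1, Olfr1293-ps, Olfr548-ps1, Olfr718-ps1, Olfr104-ps, Olfr364-ps1, Olfr1192-ps1 and Olfr709-ps1 as protein coding in spite of their symbol. It lists Olfr188-ps1 as a transcribed unprocessed pseudogene. Olfr839-ps1 (chr9:19168407-19177312, minus strand, exonic length 7759 bases, frame of 312 codons) had 2, 2 and 5 counts in the 6-month-old mice 10, 11 and 17 and 18, 16 and 12 in the 24-month-old mice 2, 4 and 5. Each 24-month-old mouse had more than any 6-month-old mouse, and the log2 fold change was 2.27 ± 0.48 (SE; edgeR quasi-likelihood test, adjusted p = 0.0518). Olfr1273-ps (chr2:90292234-90298714), a polymorphic pseudogene that shares an exon with the receptor gene Olfr1272 on the same strand, had 2, 1 and 1 counts and then 10, 7 and 18, a log2 fold change of 2.97 ± 0.63. Its reads could in part be those of Olfr1272.

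Several further genes showed the same pattern. Olfr1293-ps on chromosome 2 had 3, 1 and 2 counts in the young mice and 13, 12 and 9 in the old mice. It shares an exon with the pseudogene Gm44713 on the same strand, so its reads could in part be those of Gm44713. Olfr548-ps1, in the class I receptor cluster of chromosome 7, had 1, 3 and 3 counts followed by 17, 11 and 10 in the old mice, a log2 fold change of 2.35 ± 0.52. Olfr104-ps on chromosome 17, with a frame of 277 codons, had 2 counts in each 6-month-old mouse and 12, 7 and 9 counts in the 24-month-old mice. In each of them the lowest 24-month-old mouse was well above the highest 6-month-old mouse. Olfr364-ps1 on chromosome 2 was among the lowest in counts, with 1 in each 6-month-old mouse and 8, 6 and 5 later.

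Olfr718-ps1 on chromosome 5, which holds no gene of the intact set, was nearly silent at 6 months. It had 0, 0 and 1 counts and then 12, 11 and 3 counts, a count ratio of 25.2 whose exact 95% counting interval runs from 4.15 to 1030. Olfr709-ps1 on chromosome 7 had 2, 4 and 1 counts and then 11, 12 and 7. All 10 genes with the smallest p-values passed 10% FDR, with no overlap between the ages. Both traits follow in large part from the choice by p-value. Of all genes tested, 10.0% were called higher at 10% FDR and 20.0% were higher without overlap.

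A gene with a shorter frame was found among them as well. Olfr188-ps1 (chr16:59046861-59054202, minus strand, exonic length 4706 bases), whose stop is printed above, had 0, 5 and 2 counts in the young mice and 16, 18 and 9 in the old mice. Its log2 fold change was 2.52 ± 0.66 (SE; edgeR quasi-likelihood test, adjusted p = 0.061). Its longest frame has 170 codons. Its log2 fold change lay between those of Olfr839-ps1 and Olfr1273-ps, which keep a longer frame.

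Olfr1192-ps1 and Olfr1191-ps1 are adjacent on chromosome 2, both listed as protein coding with a frame of over 300 codons. They were among the genes with the most counts. Olfr1192-ps1 (chr2:88648509-88659772, plus strand), with a frame of 311 codons, had 1, 7 and 7 counts in the young and 24, 20 and 14 in the old mice, with a log2 fold change of 1.89 ± 0.50. Olfr1191-ps1 (chr2:88640542-88648438, plus strand) had 2, 4 and 11 counts and then 19, 21 and 13, with a log2 fold change of 1.58 ± 0.51. In both genes the 24-month-old mouse 5 came closest to the 6-month-old mice. Olfr1291-ps1, at another site on chromosome 2 and also listed as protein coding, had 4, 8 and 4 counts and then 18, 17 and 11.

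The pseudogene with the most counts was Olfr1372-ps1 (chr11:52154722-52168159, minus strand), which lies within the long noncoding RNA Gm26551 on the same strand. Its exonic length of 9812 bases is the largest of the family. It had 7, 14 and 5 counts in the young mice and 17, 25 and 17 in the old mice. The log2 fold change of 1.13 ± 0.40 (SE; edgeR quasi-likelihood test, adjusted p = 0.0985) was the smallest among the 8 genes with the most counts. Olfr911-ps1 on chromosome 9, listed as protein coding, had 2, 5 and 7 counts and then 10, 16 and 9. It did not pass 10% FDR (adjusted p = 0.12 by the same edgeR test).

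**Figure D5:**
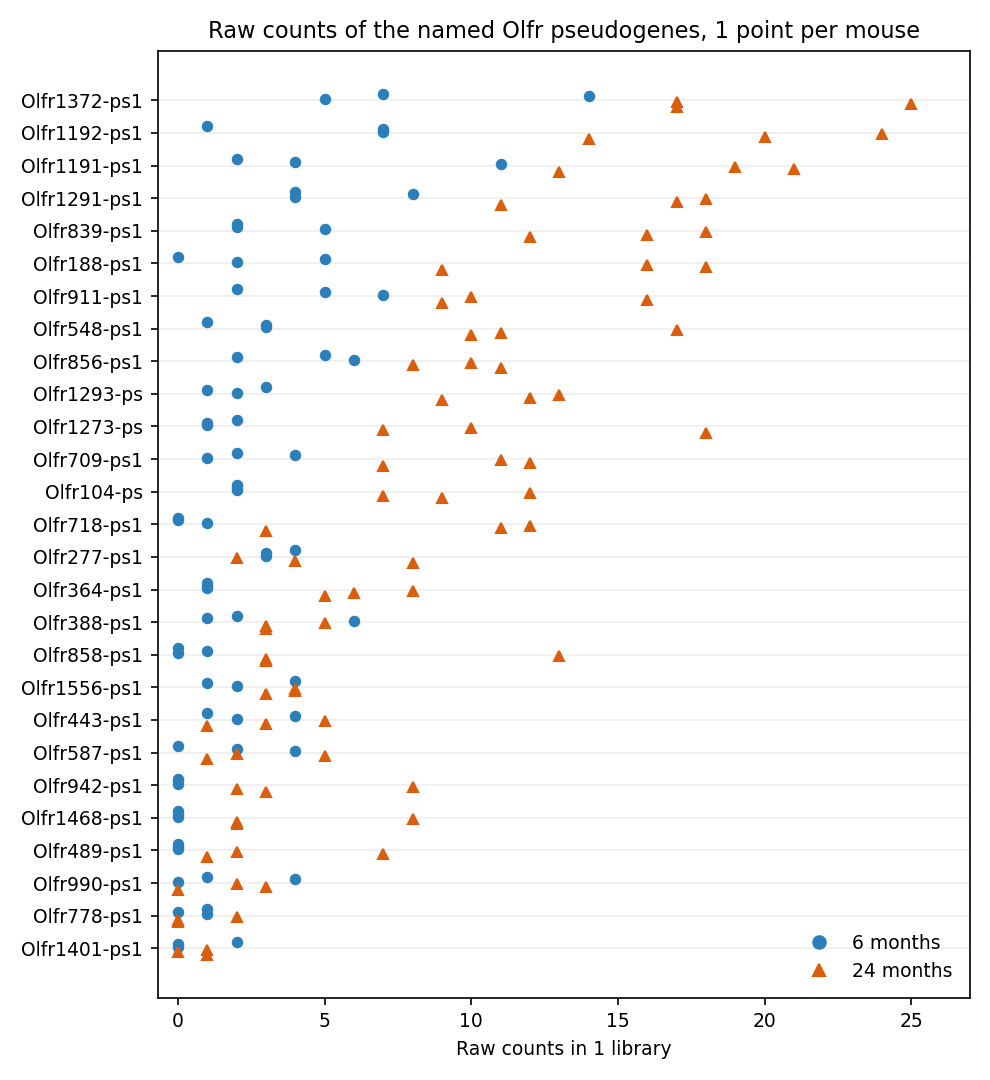
Raw counts in 1 library (horizontal axis) of the 27 pseudogenes chosen by p-value, counts, fold or density, with 3 points per age (circles 6 months, triangles 24 months; small vertical offsets separate mice). Genes are ordered by their total counts, and the ages separate in each gene from the top down to Olfr718-ps1 but overlap in several genes below, such as Olfr277-ps1 and Olfr388-ps1.

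The largest fold changes came from genes without or almost without counts at 6 months. Olfr942-ps1 on chromosome 9 had 0 counts in the 6-month-old mice and 8, 2 and 3 in the 24-month-old mice, at least 4.21-fold higher when set against a floor of 3 counts over the 6-month group. Olfr1468-ps1 on chromosome 19 had 0 counts and then 8, 2 and 2, at least 3.88-fold higher. For Olfr489-ps1 on chromosome 7 the counts were 0 in all 6-month-old mice and then 2, 7 and 1, at least 3.24-fold higher. These genes showed a single high mouse at 24 months and few counts in the other 2. Olfr858-ps1 on chromosome 9 had 0, 1 and 0 counts and then 13, 3 and 3, a count ratio of 18.4 (exact 95% counting interval 2.93 to 766).

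At the other end, 5 tested pseudogenes had fold changes near 0, and none of them passed 10% FDR. Olfr990-ps1, the chromosome 2 gene with a longest frame of 118 codons, had 1, 4 and 0 counts in the young mice, 2, 3 and 0 in the old ones, and a log2 fold change of -0.03 ± 1.11. The sign was positive (0.15) with library totals. Olfr388-ps1 on chromosome 11 had 2, 1 and 6 counts and then 5, 3 and 3. Olfr443-ps1 on chromosome 6 had 1, 4 and 2 counts and then 5, 3 and 1, and Olfr587-ps1 in the class I cluster of chromosome 7 had 0, 2 and 4 and then 2, 5 and 1. The ages overlapped in all of these genes. With so few counts the intervals were wide, and the count ratio of Olfr990-ps1 was 0.971 with an exact 95% counting interval of 0.223 to 4.22.

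The highest densities at 6 months were found in short pseudogenes, some of them inside genes expressed by neurons. Olfr277-ps1 (chr14:124589055-124589339, plus strand, 285 bases) lies on the opposite strand within Fgf14, which encodes a fibroblast growth factor homologous factor that binds sodium channels. It had 4, 3 and 3 counts in the young mice and 2, 4 and 8 in the old mice, or 0.36 and 0.482 CPM per exonic kb, with a log2 fold change of 0.42 ± 0.62. Olfr1556-ps1 (chr10:106502737-106503202, plus strand) lies on the same strand within Ppfia2, which encodes a liprin of the synapse, and had 4, 1 and 2 counts and then 4, 4 and 3, or 0.157 and 0.234 CPM per exonic kb. Neither gene separated the ages. Both were named for their density at 6 months, so their place above the family density of 0.0186 CPM per exonic kb follows from that choice.

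The other genes with a high density at 6 months were Olfr856-ps1, Olfr1401-ps1 and Olfr778-ps1. Olfr856-ps1 on chromosome 9, which overlaps no other gene, had 5, 2 and 6 counts and then 10, 8 and 11, or 0.142 and 0.303 CPM per exonic kb. Its ages did not overlap, but the difference did not pass 10% FDR (edgeR quasi-likelihood test, adjusted p = 0.163). Olfr1401-ps1 and Olfr778-ps1, with 211 and 207 exonic bases, had 2 counts at each age and were not tested.

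The genes that carry the signal of an intact receptor were examined from a list of 26 genes, all of which were tested. In the edgeR test 2 of them passed 10% FDR as higher in old mice and 6 as lower, 0 passed 1% FDR, and an unadjusted p under 0.05 was found for the same numbers. The shares of all genes tested at 10% FDR were 10.0% higher and 8.33% lower. The 2 that rose were Cngb1, a subunit of the cyclic nucleotide-gated channel of sensory neurons, with 5, 5 and 11 counts in the young mice and 27, 22 and 14 in the old mice (log2 fold change 1.53 ± 0.43), and Ldb1, a cofactor of receptor gene enhancers (0.31). Those that fell included Gnal, the olfactory G protein subunit (-0.38 ± 0.10), Adcy3, the olfactory adenylyl cyclase (-0.40 ± 0.10), Ric8b, an exchange factor for that G protein (-0.32 ± 0.09) and Reep1, a receptor chaperone (-0.46). The median log2 fold change was -0.01 over the 26 genes.

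Markers of olfactory sensory neurons differed among themselves in direction. The summed level of the 18 listed markers was 326 to 346 CPM at 6 months and 262 to 286 CPM at 24 months. This sum is made up mainly of genes that were well expressed in cortex, such as Gnal, and 13 of the markers are also in the list of signalling genes. At an unadjusted p under 0.05, 2 were higher and 4 were lower at 24 months, against 17.6% and 13.1% of all genes tested. The 9 markers that were not above 1 CPM at 6 months summed to 2.43, 2.46 and 2.9 CPM in the young mice and to 4.71, 3.03 and 2.79 CPM in the old mice, and the ages overlapped. Of these 9, 6 had a positive and 3 a negative log2 fold change. The positive ones were Stoml3 (2.34 ± 0.96), Cngb1, Rtp2 (1.28 ± 0.77), Umodl1 (0.99 ± 0.52), Gfy (0.95 ± 0.51) and Omp (0.16 ± 0.55), of which Cngb1 passed 10% FDR. The negative ones were Gng8 (-0.32 ± 0.30), Cnga2 (-0.21 ± 0.41) and Rtp1 (-0.04 ± 0.49). Omp, the olfactory marker protein of mature sensory neurons, had 4, 13 and 11 counts in the young mice and 18, 9 and 5 in the old mice. Cnga2, the main channel subunit of these neurons, had 16, 15 and 23 counts and then 16, 8 and 24, whereas Stoml3, a stomatin of their cilia, had 0, 0 and 2 counts and then 5, 4 and 3. Markers of the olfactory bulb summed to 34.7 to 68.6 CPM at 6 months and 25.7 to 50.8 CPM at 24 months. None of Omp, Cnga2 and Stoml3 was at 0 throughout, and the part of such cells in the counts of the pseudogenes was not tested.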

How the data were processed

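RNA-seq libraries of cortex from 3 male mice of 6 months and 3 of 24 months were analysed. Per the labels and the study's methods, the authors trimmed the 75-base reads with Trim Galore 0.6.4, aligned them to GRCm38 with STAR 2.7.3a and counted exonic reads per gene with featureCounts of Subread 2.0.0. The options let reads with several positions be counted in fractions, but a minimum mapping quality of 15, also set, removes such reads. No strand option is given. The deposited counts are whole numbers, used unchanged. The deposited TPM values were computed by the authors from counts and exonic length, and were used for gene names and mean levels.

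The ages were compared with edgeR 4.0.16 (R 4.3.3, TMM scaling, quasi-likelihood test, no covariates) over the 32905 genes with at least 10 counts in the 6 libraries, with Benjamini-Hochberg adjustment. The criterion of the study's own low-count filter is not given in the sources used here. Density is the summed CPM (counts per 1000000 TMM-scaled counts) per exonic kb (GENCODE vM21, GRCm38). For 275 of 275 members with a count, the exonic length agreed within 1% with the one implied by the deposited values. The fit was tested on simulated data. The labels give no batch. Densities, open frames and counting intervals were computed in Python 3.11.15 (scipy 1.17.1, numpy 2.4.6, pandas 2.3.3).

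The genes and lists were chosen with earlier results of these data known. The named genes are the 10 tested members with the smallest p, the 8 with the most counts, the 5 with the largest and the 5 with the smallest log2 fold change, and the 5 members with the highest CPM per exonic kb at 6 months, 27 genes in all. Lists were genes of olfactory signalling and receptor expression, and markers of olfactory sensory neurons, the olfactory bulb, cortical excitatory neurons and 7 other cell groups. Over those 7, inhibitory neuron markers summed to 787 to 836 CPM at 6 months and 579 to 796 CPM at 24 months, astrocyte markers to 2100 to 2380 and 2190 to 2570, oligodendrocyte markers to 2190 to 3440 and 1140 to 3790, and microglial markers to 416 to 419 and 387 to 429. Endothelial markers summed to 70.3 to 87.4 and 59.2 to 95.6 CPM, choroid plexus markers to 15.8 to 42.9 and 19.1 to 41.0, and meningeal markers to 18.3 to 42.6 and 16.8 to 45.5. Alternatives were other scalings, count minimums and tests (DESeq2 1.42.0 and edgeR's likelihood ratio test), pseudogene annotation only, and each mouse left out in turn. Leaving out the 10 members with the most counts, and keeping only members without a frame of 300 codons, were chosen after seeing the data.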

Additional observations from a re-analysis of the deposited data

How the results depend on the processing

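The 3.57-fold density difference of the pseudogenes was 3.25 to 4.03 with each mouse left out and 4.85 from medians over genes. That of the intact receptors (2.94) was 2.61 to 3.30 and 3.88. The pseudogene fold over the intact fold (1.22) was 1.15 to 1.33. Without the 10 pseudogenes with the most counts the fold was 3.63. The count at 10% FDR (27) was 4 with edgeR's filterByExpr, which left 6 pseudogenes, and 51 with the likelihood ratio test. It was 8 with DESeq2, which gave an adjusted p for 38, 14 among genes annotated as pseudogenes, and 0 to 33 with a mouse left out. Calls over all genes moved with the setting too. Those called higher were 3299 of 32905 in the main fit and 1108 of 20490 with filterByExpr. They were 5302 of 32905 with the likelihood ratio test, 1340 of 27160 with DESeq2, and 0 to 4364 with a mouse left out. At 1% FDR the count of pseudogenes was 13 with the likelihood ratio test and 0 with each mouse left out. The count at an unadjusted p under 0.05 (50) was 6 with filterByExpr, 28 with DESeq2, 28 among annotated pseudogenes and 26 to 42 with a mouse left out. The count without overlap between the ages (56) was 6 with filterByExpr. Shares over all genes in these settings are not given for the unadjusted and non-overlap counts. Of 270 alternatives for single genes, 251 kept their direction and side of the 0.05 threshold, 11 lost the latter and 8 changed sign, all in genes near 0. Olfr990-ps1 changed to 0.15 with library totals, 0.0 without a count minimum and 0.52 without mouse 5. With a mouse left out, Olfr990-ps1 was tested only without mouse 17 (-0.58) or mouse 5 (0.52). Otherwise it fell below the count minimum. Olfr388-ps1 ranged from -0.15 to 1.18, Olfr443-ps1 from -0.26 to 0.91 and Olfr277-ps1 from -0.18 to 0.77. Olfr587-ps1, not tested without mouse 4, ranged from -0.17 to 1.28. The cause of these changes was not tested beyond the smaller number of genes or mice that some settings use. No paired analysis was possible because the 2 ages were read in different mice. Depth limits single genes to a few counts, so a fold near 1 in one of them does not show that it was unchanged.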
